A study of Nomascus leucogenys and Hoolock leuconedys and Nomascus gabriellae with 23 samples.

Results

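LAVA sites carried by the gibbon Hoolock leuconedys were divided by how many of the 3 Hoolock animals in the study carry them. Of 5490 listed LAVA sites, 3301 were carried by at least 1 Hoolock animal, and these are the sites described here. All 3 animals carried 2257 of them, which are called fixed, and 1 or 2 animals carried the other 1044, which are called polymorphic. The terms cover these 3 animals and not the species. A call gives presence and not the number of chromosomes with the insertion, so fixed here means present in all 3 animals. The split was chosen by the Hoolock calls themselves, so the sizes of the sets are a description and carry no test.

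Blood DNA of 23 gibbons of 4 genera was sequenced as whole-genome libraries. The groups used here are the 3 H. leuconedys animals and, for carriage elsewhere, 20 animals: 13 Nomascus (N. leucogenys and N. gabriellae), 5 Hylobates (H. lar, H. moloch, H. muelleri and H. pileatus) and 2 Symphalangus syndactylus. The labels give no treatment, age or relationship among the animals. The deposited table gives a call per site and animal, 1 for carried, 0 for not carried and NA for a missing call, and how deeply each animal was sequenced is unknown.

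LAVA is a composite retrotransposon of gibbons whose name strings together its parts, which derive from LINE, AluSz, VNTR (tandem repeat) and Alu-like sequence. Elements of this kind do not encode their own enzymes and are copied by the LINE-1 machinery, which starts at the 3' end of the RNA, so that many copies lack part of their 5' end. An insertion arises in 1 chromosome of 1 animal and is then inherited, and until it is lost or carried by all, some animals have it and others do not. Insertions that lie in introns can be read in the sense or the antisense orientation of the gene.

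Sites come in 2 forms in the table. At single-base sites the position spans 1 base, and at interval sites it spans the whole element. The submitters' notes do not say how the forms arose. Every interval site carried in Hoolock was also carried in Nomascus. The N. leucogenys animals carried 1112 to 1118 interval sites each, and the Hoolock animals 967 to 984. Form is thus tied to carriage in Nomascus, and the forms are kept apart below. A site is listed when at least 2 of the 23 animals carry it, so a site carried by 1 Hoolock animal always has a carrier in another genus.

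The 3 Hoolock animals carried 2709, 2829 and 2882 sites. Their missing calls numbered 170, 59 and 49, so the animal with the fewest sites had the most missing calls. Missing calls made up 1.69% of the Hoolock calls and 0.566% of the calls of the 20 other animals. A missing call was counted as not carried. Of the 1044 polymorphic sites, 75 had a missing Hoolock call, and at 55 of these every Hoolock animal with a call carried the site. With the 75 sites left out, 969 polymorphic sites remained, each with a 0 in at least 1 Hoolock animal. The fixed share and the 10 differences tested over all sites were repeated without those 75 sites, and the comparisons within subsets were not. Of the 10 differences, 9 kept their direction and their side of the threshold, and the exception is named where it occurs.

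Of the 3301 sites, 68.4% were fixed (95% exact binomial interval 66.8 to 70.0). This is a share of listed sites, since a site carried by 1 Hoolock animal and no other animal is not listed. Of the polymorphic sites, 605 were carried by 2 animals and 439 by 1. The next class outward holds the 2189 listed sites that no Hoolock animal carried. These intervals, like all below, cover counting error over sites alone, since the 3301 sites come from the same 3 animals.

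**Figure D1:**
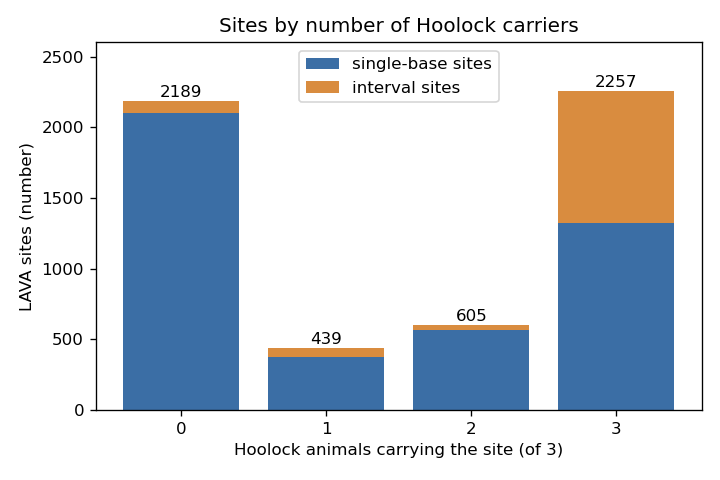
Number of LAVA sites (vertical axis) by the number of Hoolock animals that carry the site (horizontal axis, 0 to 3 of 3), with single-base and interval sites stacked. The class of 3 carriers holds 2257 sites, of which 933 are interval sites, and the classes of 1 and 2 carriers hold 62 and 36 interval sites.

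The 2 sets differed in form. Interval sites made up 933 of 2257 fixed sites, 41.3% (95% interval 39.3 to 43.4), and 98 of 1044 polymorphic sites, 9.39% (7.69 to 11.3). The difference of 32.0 percentage points (29.2 to 34.6) passed the threshold in a two-sided Fisher's exact test on sites (p = 4.45e-85, adjusted over 10 tests). All of these interval sites had a Nomascus carrier, as did some single-base sites. Among sites with a Nomascus carrier, 933 interval sites were fixed and 98 polymorphic, against 185 and 459 single-base sites. The number of Nomascus carriers still differed by form, with a median of 13 in both interval sets and of 8 (fixed) and 5 (polymorphic) at single-base sites. The difference was not tested with that number held equal. By form, 90.5% of the 1031 interval sites and 58.3% of the 2270 single-base sites were fixed. Pairs of Hoolock animals showed the same contrast. At single-base sites the share of sites carried by both among those carried by either (the Jaccard index) was 0.686, 0.689 and 0.742 for the 3 pairs, and at interval sites it was 0.929 to 0.943. The single-base index of the 55 pairs of N. leucogenys ran from 0.292 to 0.538, below all 3 Hoolock pairs, and those of the single pairs of H. moloch, N. gabriellae and S. syndactylus were 0.594, 0.574 and 0.683. At interval sites the order turned, with 0.991 to 1 for N. leucogenys and 0.996 for N. gabriellae, while H. moloch had 0.929 and S. syndactylus 0.941. Over both forms the N. leucogenys pairs, 0.729 to 0.824, overlapped the Hoolock pairs, 0.765 to 0.806. Pairs within a species share animals, and these values are given without a test. Form is tied to carriage in Nomascus, so the order of species within a form cannot be told apart from that tie. The listing minimum also bears unequally on species with 2, 3 and 11 animals.

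Among single-base sites, polymorphic insertions were shorter by the deposited length. At all 4372 single-base sites of the table this length equals the distance between the listed consensus positions, so it is a span on the consensus. The median length of polymorphic insertions was 549.5 bp (quartiles 451 and 1626), against 1360 bp (560 and 1822) for fixed insertions. Elements below 540 bp made up 471 of 946 polymorphic sites, 49.8%, and 292 of 1324 fixed sites, 22.1%, a difference (fixed minus polymorphic) of -27.7 points with a 95% interval of -31.6 to -23.8 (Fisher's exact test, adjusted p = 2.18e-42). Near full-length elements of 1800 bp or more made up 13.7% of polymorphic and 29.4% of fixed sites (adjusted p = 1.99e-18). The limit of 540 bp is the length of the shortest interval site in the table. Interval sites showed the same order of medians, 1030 bp for the 98 polymorphic and 1297 bp for the 933 fixed sites, and this difference was not tested. Interval lengths ran to 6352 bp, beyond the last consensus position of 1839, so the lengths of the 2 forms are not the same measure. Single-base sites carried by 2 animals lay between the others, with a median of 1204 bp, and those carried by 1 animal had a median of 457 bp. The latter are listed only when another genus carries them. With sites of 2 animals alone as polymorphic, 43.4% were below 540 bp, a difference of -21.4 points (Fisher's exact test, adjusted p = 1.12e-19). For 1800 bp or more the difference was then 10.9 points (Fisher's exact test, adjusted p = 1.18e-06).

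The lengths also differed by whether a site was carried in another genus. Among single-base sites carried by Hoolock alone, the median was 1376 bp for the 948 fixed and 1378 bp for the 219 polymorphic sites, and among those carried elsewhere too it was 617.5 bp for 376 fixed and 462 bp for 727 polymorphic sites. Within Hoolock-specific sites, elements below 540 bp were still more frequent in the polymorphic set, 24.2% against 11.7% (Fisher's exact test, p = 5.03e-05, adjusted within these sites). Within shared single-base sites the shares were 57.5% and 48.1% (adjusted p = 0.0269). This polymorphic set includes the sites of 1 Hoolock animal, which are listed only when shared. The comparison without them was not made, so no conclusion is drawn from the result within shared sites. The share of near full-length elements did not pass the threshold in either class, with 34.3% of polymorphic against 37.0% of fixed Hoolock-specific sites (adjusted p = 0.694) and 7.57% against 10.1% of shared sites (adjusted p = 0.453). Hoolock-specific sites made up 948 of the 1324 fixed and 219 of the 946 polymorphic single-base sites, and the part of this in the difference over all sites was not tested.

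Shared single-base sites had lengths in 2 narrow ranges, which were picked after the lengths were seen and are given without a test. Elements of 440 to 469 bp and of 1620 to 1629 bp together made up 426 of 727 polymorphic shared sites, 58.6%, and 179 of 376 fixed shared sites, 47.6%. At Hoolock-specific sites the same ranges held 43 of 219 polymorphic sites, 19.6%, and 45 of 948 fixed sites, 4.75%. The most frequent length was 1626 bp in both shared sets, at 108 polymorphic and 39 fixed sites, and 1837 bp in both Hoolock-specific sets, at 30 polymorphic and 103 fixed sites. The listed positions on the LAVA consensus run to 1839, and most elements of 1626 bp begin at position 212. The median start of the polymorphic shared sites was 1376, and that of the fixed Hoolock-specific sites was 462.5. Since length at single-base sites is the distance between consensus positions, these starts restate the lengths and are not separate observations.

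**Figure D2:**
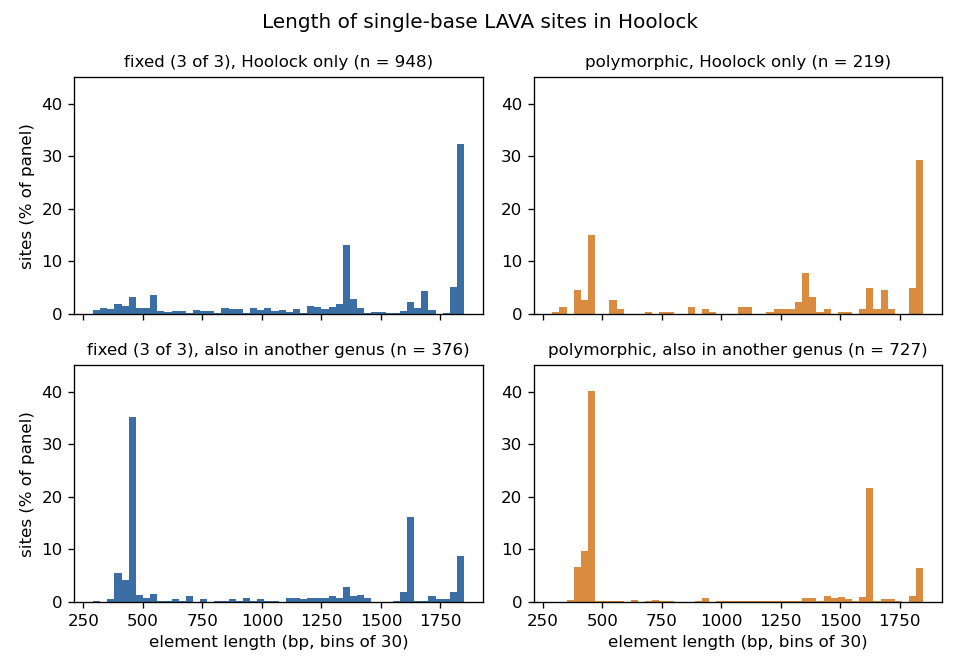
Length of single-base LAVA elements in bp, in bins of 30 bp (horizontal axis), against the percentage of the sites of the panel (vertical axis), for fixed (left) and polymorphic (right) sites carried by Hoolock alone (top) or in another genus too (bottom). The lower panels are dominated by bars near 450 and 1626 bp, the upper ones by the bar of the longest elements, with the most frequent length at 1837 bp.

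Carriage outside Hoolock was compared between fixed sites and sites carried by exactly 2 animals, because the listing minimum fixes it for sites of 1 animal. Over both forms, 58.0% of 2257 fixed sites and 63.8% of 605 sites of 2 animals were carried in another genus, a difference of -5.80 points with an interval of -10.1 to -1.41 (Fisher's exact test, adjusted p = 0.0173). The threshold was missed once sites with a missing Hoolock call were left out (58.0% against 62.6%, adjusted p = 0.0812). Carriage in all 3 other genera was higher for fixed sites, 47.7% against 28.9% (Fisher's exact test, adjusted p = 1.6e-16), and this direction depended on the form. At interval sites it was 99.1% of 933 fixed against 55.6% of 36 sites of 2 animals (adjusted p = 1.08e-18). At single-base sites it was the opposite, 11.4% of 1324 against 27.2% of 569 (adjusted p = 3.73e-16), and carriage in any other genus was 28.4% against 61.5% (adjusted p = 1.06e-40). The direction over both forms together was that of the interval sites. Every interval site here had a Nomascus carrier, so form and carriage elsewhere are not independent. The opposite directions cannot be told apart from how the forms divide the sites.

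Read the other way, the fixed share of single-base sites with 2 or 3 Hoolock carriers was 81.2% (95% interval 78.9 to 83.4) at the 1167 sites in no other genus. It was 63.1% (55.6 to 70.2) at 179 sites in 1 other genus, 46.5% (40.0 to 53.0) at 241 sites in 2, and 49.3% (43.6 to 55.1) at 306 sites in 3. The last 2 intervals overlap, and the first does not overlap any of the others. Once sites of 1 Hoolock animal are included, which exist for shared sites alone, the fixed shares at 1, 2 and 3 other genera were 34.8%, 29.9% and 37.5%. At interval sites the order was the opposite, with 97.9% of 945 sites fixed at 3 other genera and 35.0% of 20 sites at 2. Here too, form is tied to carriage in Nomascus.

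**Figure D3:**
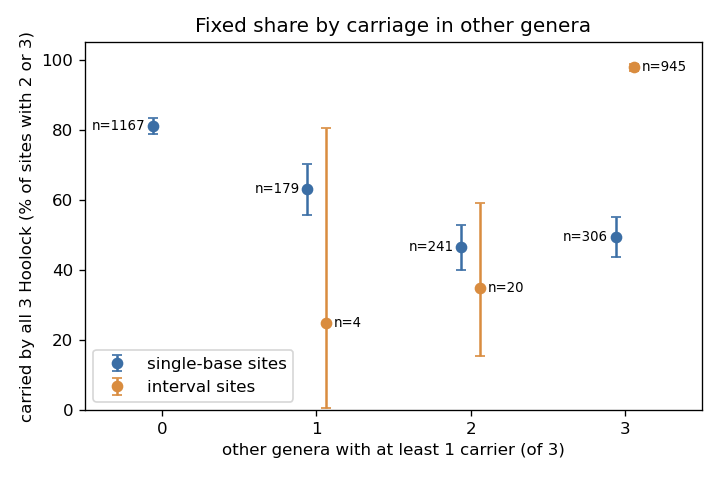
Percentage of sites carried by all 3 Hoolock animals among sites carried by 2 or 3 of them (vertical axis), by the number of other genera with at least 1 carrier (horizontal axis). Points are shares, bars are exact 95% binomial intervals and n is the number of sites, and single-base sites fall from 81.2% in no other genus to 46.5% in 2 while interval sites reach 97.9% in 3.

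Shared sites that were polymorphic in Hoolock also had fewer carriers in the other genera. At single-base sites the 727 polymorphic shared sites had a median of 5 carriers among the 20 other animals (quartiles 2 and 10), against 7 (4 and 13) for the 376 fixed shared sites. In Symphalangus, both animals carried 201 of 439 such polymorphic sites present in that genus, 45.8%, and 211 of 290 fixed sites, 72.8%. In Hylobates, all 5 animals carried 12.2% of 596 polymorphic and 38.7% of 315 fixed sites. In Nomascus, all 13 animals carried 3.05% of 459 and 11.4% of 185. Each of the 3 genera thus had the higher share carried by all of its animals at sites fixed in Hoolock, a comparison made over sites and without a test. Among the 350 of these sites carried by 2 Hoolock animals, where the listing minimum sets no bound, the median was 6 other carriers (quartiles 3.25 and 12), and the shares carried by all animals of the genus were 50.4%, 17.4% and 4.13% in that order of genera.

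At interval sites the contrast was wider. Of 933 fixed interval sites, 906 were carried by all 20 other animals. The 98 polymorphic interval sites had a median of 15 other carriers, and 6 of them were carried by all 20. All 98 were carried in Nomascus, by all 13 animals at 88 of them. Hylobates carried 77, by all 5 animals at 11, and Symphalangus carried 54, by both animals at 26. A site that varied within Hoolock at this form was thus usually also not carried by every Hylobates and Symphalangus animal.

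In all, 14 polymorphic sites, these 6 interval sites and 8 single-base sites, were carried by all 20 animals of the other genera and missing from 1 or 2 Hoolock animals. Of these, 2 had a missing Hoolock call. Gene bodies held 7 of the 14, all intronic. In ZNF726, a zinc finger gene, a 2874 bp interval element lay antisense on chromosome 10 between 51122515 and 51125388 and was carried by 2 Hoolock animals. The same gene name also held a fixed, Hoolock-specific 1695 bp insertion in its deposited 3' untranslated class at 51103420. In UBOX5, which encodes a U-box ubiquitin ligase, a 1626 bp element on chromosome 13 at 36718246 was carried by 2 Hoolock animals. LRRC29, a leucine-rich repeat gene, had a 423 bp sense element on chromosome 2 at 55917270, and MROH7 a 1836 bp sense element on chromosome 5 at 48966585, each carried by 2 Hoolock animals. TMPRSS11F, which encodes a membrane serine protease, had a 1193 bp interval element on chromosome 9 from 37631375 to 37632567, carried by 1 Hoolock animal. The 390 bp element in RBM43, an RNA-binding protein gene, was carried by 2 Hoolock animals and had a missing call in the other. Positions follow the deposited table with the first base as 1, and the build is not named there.

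Intronic insertions lay less often in sense orientation in the fixed set. Of 1102 fixed intronic sites, 366 were sense, 33.2% (95% interval 30.4 to 36.1), and of 518 polymorphic ones 229 were sense, 44.2% (39.9 to 48.6), a difference whose 95% interval ran from -16.1 to -5.91 points (Fisher's exact test, adjusted p = 4.17e-05). This difference went together with form and sharing. Interval sites were 26.4% sense in the fixed set (n = 459) and 22.5% in the polymorphic set (n = 40, adjusted p = 1), so the direction turned there. Among single-base sites the shares were 38.1% of 643 and 46.0% of 478 (adjusted p = 0.0151). Split further, they were 34.4% of 454 fixed against 40.2% of 107 polymorphic Hoolock-specific sites (adjusted p = 0.694), and 47.1% of 189 against 47.7% of 371 shared sites (adjusted p = 0.949). Neither of these passed the threshold, and the intervals of the differences, -16.2 to 4.05 and -9.26 to 8.09 points, leave room for either sign.

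Orientation was also counted by length class, and the classes were not tested against one another. Single-base intronic elements below 540 bp were 47.1% sense in the fixed set (n = 138) and 48.3% in the polymorphic set (n = 234). Elements from 1000 bp to below 1500 bp were 30.3% sense in the fixed set (n = 152) and 43.2% in the polymorphic set (n = 37). Near full-length elements were 38.3% (n = 193) and 43.7% (n = 71) sense. From 540 bp to below 1000 bp the shares were 28.6% in the fixed set (n = 63) and 41.2% in the polymorphic set (n = 17). From 1500 bp to below 1800 bp they were close to each other, 43.3% (n = 97) and 44.5% (n = 119). At 540 bp and above, a limit combined with form after the data were seen, the single-base difference was 35.6% against 43.9% and missed the threshold (adjusted p = 0.0739 by Fisher's exact test). Intergenic sites, which have no gene to be oriented to, were on the plus strand at 48.7% of 999 fixed and 52.0% of 446 polymorphic sites (adjusted p = 0.365).

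**Figure D4:**
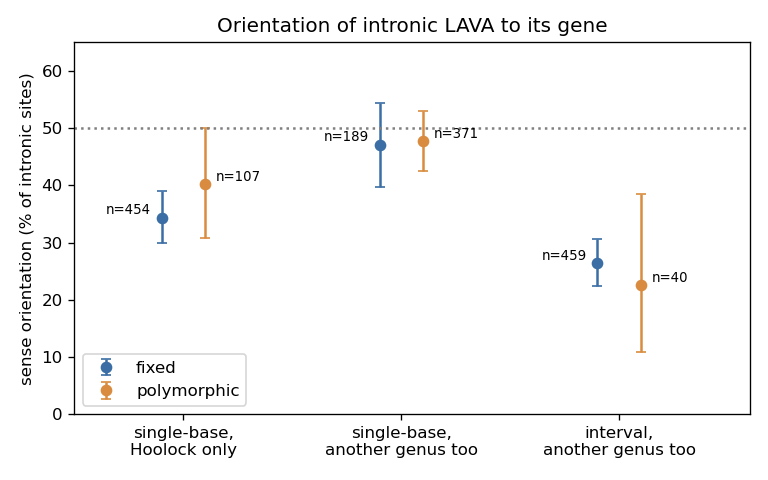
Percentage of intronic LAVA sites in sense orientation to their gene (vertical axis) for fixed and polymorphic sites, by form and by carriage in another genus (horizontal axis). Points are shares with exact 95% binomial intervals, n is the number of sites and the dotted line marks an even split. The shared single-base sites lie near the line at 47.1% and 47.7%, and the fixed interval sites lie at 26.4%.

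The position of insertions relative to genes differed little between the sets. Gene bodies (the intronic, exonic and untranslated classes) held 49.5% of fixed and 50.6% of polymorphic sites, a difference of -1.04 points with a 95% interval of -4.70 to 2.62 (Fisher's exact test, adjusted p = 0.6). Promoter and terminator classes held 6.20% and 6.70% (adjusted p = 0.6). Untranslated regions and exons held 16 of 2257 fixed sites, 0.709% (95% interval 0.406 to 1.15), and 10 of 1044 polymorphic sites, 0.958% (0.460 to 1.75), intervals that overlap. Chromosome X held 3.99% of fixed and 3.45% of polymorphic sites (adjusted p = 0.6).

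The 10 polymorphic sites in untranslated classes fell into 2 kinds by length and sharing. The 6 that were carried in another genus were all below 540 bp, and the 4 that were not were all longer. Among the short ones, HARBI1, a gene derived from a DNA transposase, had a 452 bp sense element in the 3' untranslated class on chromosome 15 at 109466852, carried by 1 Hoolock and 1 Hylobates animal. TSEN15, which encodes a subunit of the tRNA splicing endonuclease, had a 459 bp sense element on chromosome 9 at 31807105, carried by 1 Hoolock animal and by 4 animals elsewhere. PSMD10, which encodes a chaperone of proteasome assembly, had a 465 bp antisense element on chromosome X at 95552917, carried by 1 Hoolock animal and by 4 others. CHP1, a calcineurin B homologous protein gene, had a 455 bp antisense element on chromosome 6 at 59387976, carried by 2 Hoolock animals and 1 Hylobates animal. Of the longer ones, ARL6IP6 had a 1370 bp sense element in the 3' untranslated class on chromosome 17 at 25539213, and HELLPAR, a long non-coding RNA gene, a 1354 bp sense element on chromosome 10 at 75654275, each carried by 2 Hoolock animals and no other animal. A non-coding gene has no untranslated region, so the deposited class cannot be read that way for HELLPAR. The other 4 of the 10 have clone-type names. Over all polymorphic single-base sites, 57.5% of shared and 24.2% of Hoolock-specific ones were below 540 bp. Of the fixed sites in untranslated or exonic classes, 3 of the 6 shared and 2 of the 10 Hoolock-specific ones were. The split of the polymorphic sites rests on few sites and was not tested.

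Of the 16 fixed sites in these classes, 6 were carried in another genus. POLR1A, which encodes the largest subunit of RNA polymerase I, had a 1307 bp sense element in the 3' untranslated class on chromosome 14 at 70927981. PEX11A, a peroxisome division gene, had a 462 bp sense element on chromosome 6 at 108815249, and CFLAR-AS1, an antisense RNA gene with no untranslated region of its own, a 451 bp element on chromosome 22a at 91379874. These 3 sites shared a pattern, since all 5 Hylobates and both Symphalangus animals carried each of them and no Nomascus animal did. The others are the exonic interval site named STAG3L5P-PVRIG2P-PILRB, carried by all 23 animals, and 2 sites with clone-type names.

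Hoolock sites in gene bodies carried 1264 gene names other than clone names, of which 1107 had 1 site. Fixed sites were present under 902 names and polymorphic sites under 442, and 80 names had both. TYW1B, named for a tRNA-modifying enzyme, had the most, with 4 fixed sites and 1 polymorphic site on chromosome 17. It has a close paralog, TYW1, and the treatment of reads from near-identical copies is unknown. Names at 3 sites with both kinds included CEP112, CNTN4, ESCO1, EXOC6B and KLHL23 with 2 fixed and 1 polymorphic site, and ABHD18 with 1 fixed and 2 polymorphic sites. Sites named 5S_rRNA, FAM41C and STAG3L5P-PVRIG2P-PILRB also had both, and whether these names mark a single gene body on this build was not checked.

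ABHD18, a gene of the alpha/beta hydrolase domain family, shows how the kinds can sit side by side on chromosome 7b. Its fixed site was a 948 bp interval element from 28424527 to 28425474, carried by all 23 animals. A 1837 bp single-base element at 28412119 was carried by 2 Hoolock and 11 other animals. A 1273 bp interval element from 28401323 to 28402595 was carried by 1 Hoolock animal, all 13 Nomascus, both Symphalangus and no Hylobates animal. All 3 were antisense to the gene. In EXOC6B, an exocyst subunit gene on chromosome 14, the 2 fixed sites of 1833 and 1837 bp were Hoolock-specific, and the polymorphic one was an 895 bp interval element carried by 1 Hoolock, all 13 Nomascus and 2 Hylobates animals. In CEP112, a centrosomal protein gene on chromosome 19, a near full-length fixed element of 1820 bp and a near full-length polymorphic element of 1839 bp were both Hoolock-specific, and the other fixed site was an interval element of all 23 animals.

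USP32, a deubiquitinase gene, was the gene with the most polymorphic sites. It had 3 and no fixed site, on chromosome 14 at 12587310 (1625 bp, 18 other carriers), 12692789 (429 bp, 9 other carriers) and 12751359 (1626 bp, 5 other carriers). Next came genes with 2 polymorphic sites and no fixed one, the first by name being ADAMTSL1, an extracellular matrix gene, ARHGAP28, a GTPase-activating protein gene, and B3GNTL1, a glycosyltransferase-like gene. Of genes with 3 fixed sites and no polymorphic one, NEMF, a gene of ribosome quality control, held 3 interval elements carried by all 23 animals. PHC3, a Polycomb group gene on chromosome 11, held 1 such element and 2 Hoolock-specific ones of 1690 and 1607 bp. CFAP70, a gene of the ciliary axoneme, held 2 such elements and a Hoolock-specific one of 363 bp.

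Gene lists were used to see which functions hold sites of each kind, beside a background of 528 polymorphic sites among 1646 gene-body sites, 32.1% (95% interval 29.8 to 34.4). Each list is described by its counts and was not tested. The share of all genes that hold a Hoolock site is not given. The numbers of list genes with a site therefore have no background and cannot be read as high or low. Gene length, by which the list of very long genes was named, was not taken into account. Of 69 chromosome segregation genes, 15 held 20 sites, of which 5 were polymorphic (25%, interval 8.66 to 49.1). All 5 were single-base sites. ESCO1, a cohesin acetyltransferase gene on chromosome 4, had a 1447 bp sense element at 59388150 carried by 1 Hoolock animal and 19 of the 20 others. BUB1B, a spindle checkpoint kinase gene, had a 1792 bp antisense element on chromosome 6 at 60512847, carried by 1 Hoolock and 15 other animals. NUF2, a kinetochore gene, and KIF4A, a chromokinesin gene on chromosome X, each had an antisense element carried by 2 Hoolock animals and no other, of 1811 and 1115 bp. ANAPC1, a subunit gene of the anaphase-promoting complex, had a 453 bp sense element carried by 2 Hoolock and 4 Hylobates animals and had a missing call in the other Hoolock animal. Of the 15 fixed sites of the list, 11 were interval sites, among them the fixed sites of ANAPC1, ANAPC5 and CLASP2. Over all gene bodies 460 of 1118 fixed sites were interval sites, and in the DNA repair, microtubule and neuronal lists 5 of 8, 6 of 13 and 6 of 24 were.

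Of 78 DNA repair genes, 9 held 10 sites, of which 2 were polymorphic (20%, interval 2.52 to 55.6). RAD17, a checkpoint clamp loader gene, had a 387 bp sense element on chromosome 18 at 81134822, carried by 2 Hoolock and 13 other animals. XRCC4, a gene of non-homologous end joining, had an 896 bp antisense element on chromosome 2 at 97372090, carried by 2 Hoolock and 2 Nomascus animals. The fixed sites included a Hoolock-specific 1837 bp element in POLN, a DNA polymerase gene, and a 1376 bp element in the recombination gene RAD51B carried by 1 Hylobates animal as well.

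Of 71 microtubule and cilium genes, 12 held 17 sites, of which 4 were polymorphic (23.5%, interval 6.81 to 49.9). They lay in CEP112, in KATNA1, a subunit gene of the microtubule-severing enzyme katanin, in DNAH9, an axonemal dynein gene, and in DYNC1H1, the cytoplasmic dynein heavy chain gene. The DNAH9 element of 454 bp was Hoolock-specific, whereas the KATNA1 element of 1635 bp was carried by 12 other animals. DYNC1H1 also held a fixed 1618 bp sense element carried by 19 of the 20 others.

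The very long neuronal and fragile-site genes had the largest share of polymorphic sites of the 4 lists, although its interval includes the background. Of 59 such genes, 27 held 41 sites, of which 17 were polymorphic (41.5%, interval 26.3 to 57.9). CSMD3, a CUB and Sushi domain gene, GRIK2 and RBFOX1 each had 2 polymorphic sites and no fixed one. In GRIK2, a kainate receptor gene on chromosome 3, these were sense elements of 1809 and 454 bp. In RBFOX1, a neuronal splicing factor gene on chromosome 18, a 349 bp element was Hoolock-specific and an 1837 bp element was carried by 11 other animals. WWOX, a gene at a common fragile site, held 3 antisense near full-length elements on chromosome 2, of 1839 and 1837 bp at its fixed sites and 1827 bp at its polymorphic site. The first and the last of these were Hoolock-specific. DPP6, which encodes a potassium channel subunit, held 2 fixed sites, and CNTN4, a neuronal adhesion gene, and STXBP5L, a gene of the tomosyn family, held 2 fixed and 1 polymorphic site each. In STXBP5L the fixed sites were interval elements of 2965 and 3580 bp carried by all 23 animals.

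All sites of the 4 lists were intronic, and their orientation is given beside the 595 sense sites among all 1620 intronic Hoolock sites. Sense sites numbered 1 of 10 in the DNA repair list, 2 of 17 in the microtubule and cilium list, 8 of 20 in the chromosome segregation list and 14 of 41 in the very long neuronal and fragile-site list. These counts are small and were not tested.

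By chromosome the polymorphic share ran from 23.1% of 52 sites on chromosome 23 to 52.6% of 57 sites on chromosome 24. The interval of chromosome 24, 39.0 to 66.0, lay above the share of 31.6% over all chromosomes, and so did that of chromosome 7b, 31.9 to 49.1. The other intervals included that share. On chromosome 24, 29 of 46 single-base sites were polymorphic, 63.0%, the highest of the 26 chromosomes for that form too. These chromosomes were picked after their values were seen, and no test was made.

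**Figure D5:**
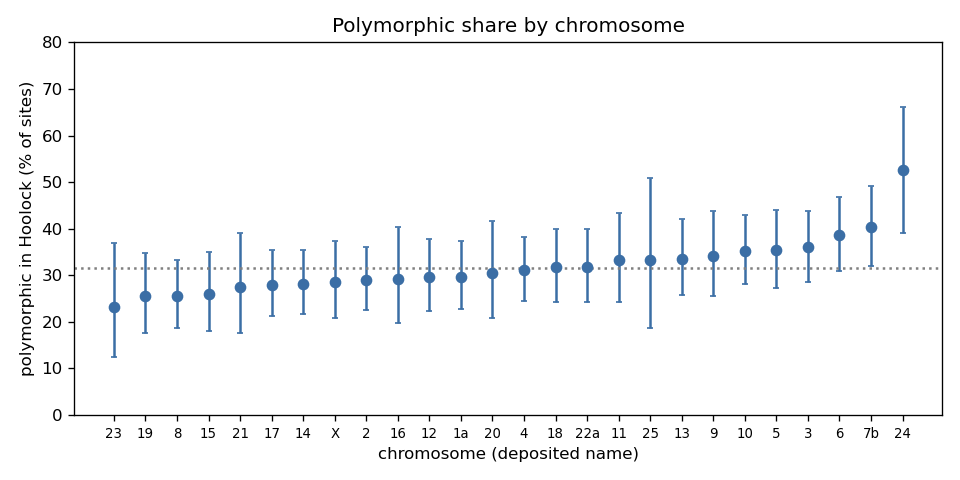
Percentage of Hoolock LAVA sites that were polymorphic (vertical axis) on each of the 26 chromosomes (horizontal axis, deposited names, in order of the share). Points are shares with exact 95% binomial intervals and the dotted line is the share over all sites, 31.6%. Chromosome 24 stands highest at 52.6%.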

How the data were processed

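Genomic DNA of gibbon blood was sheared and made into Illumina libraries, per the labels' protocols, and BWA is named, without a version, in the submitters' processing notes. The insertion caller, its filters, the build and the annotation were not stated. Calls were deposited per site and animal as 1, 0 or NA, with an element length, consensus positions, a location class, an orientation and a human gene name. No read numbers are in that table, so depth could not weight any call. All 23 columns of calls were matched to animals by their labels.

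The members, the length limits and the gene lists were chosen with earlier results of these data known. Fixed and polymorphic sites were compared with two-sided Fisher's exact tests on sites with Benjamini-Hochberg adjustment over 10 tests and a threshold of 0.05. Within subsets, adjustment was over the tests defined there. Sites of the same 3 animals are not independent animals, so p-values describe these sites. Intervals are exact Clopper-Pearson, and those of differences are Newcombe intervals. The tests were checked on simulated data. Python 3.11.15, scipy 1.17.1, statsmodels 0.14.6 and pandas 2.3.3 were used.

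Named genes are up to 10 with both kinds of site, all polymorphic sites and up to 12 shared fixed sites in exons or untranslated classes, up to 8 polymorphic gene-body sites carried by all 20 other animals, the 6 genes with the most sites of each kind, and up to 6 per list and kind. Clone-type names are counted and not named. Not every gene taken by this rule is reported here. Gene names are the deposited ones, and 1102 of 1264 were found in the RefSeq table of assembly Asia_NLE_v1, used for names alone.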

Additional observations from a re-analysis of the deposited data

How the results depend on the processing

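Of 132 alternative values, 99 kept their direction and their side of the threshold. Some of these could not differ from the main value, because the alternative leaves the compared sites as they were. This holds for single-base sites alone in both length comparisons, and for 2 of 3 as polymorphic in both comparisons of carriage elsewhere. Other alternatives repeat one another, so the count does not measure how stable the results are. The fixed share of 68.4% was 70.0% without sites with a missing Hoolock call, 70.8% without sites with any missing call, 58.3% at single-base sites, 90.5% at interval sites, 77.4% at 540 bp or more, 78.9% with 2 of 3 as polymorphic, 81.2% in no other genus and 61.3% in at least 1. Sites of 1 Hoolock animal are listed only in the class of at least 1 other genus, so these last 2 shares have unlike denominators. The fixed share was 34.1% at single-base sites of another genus, an alternative chosen after seeing the data. With 1 Hoolock animal left out it was 76.5% to 80.6%, where 2 carriers then counted as fixed. Differences below are fixed minus polymorphic, in percentage points. For elements of 1800 bp or more the difference fell below the threshold at 2.78 in no other genus and 2.54 in at least 1 other genus, where the value at single-base sites carried in another genus is the same. For sense orientation it was 3.86 at interval sites, -5.83 in no other genus, -0.619 at shared single-base sites and -8.21 at single-base sites of 540 bp or more. For carriage outside Hoolock it was -4.59 without missing Hoolock calls, -3.91 without any missing call and 3.77 at 540 bp or more. For carriage in all 3 other genera it was -15.8 at single-base sites, -4.13 at shared single-base sites and -13.0 at single-base sites of 540 bp or more. Differences that never passed the threshold changed sign in gene bodies (8.49 at interval sites, -1.22 to 0.0165 with 1 animal left out), in promoters and terminators (0.0872 with 2 of 3 as polymorphic, 0.272 in at least 1 other genus), on the plus strand (0.139 at interval sites, 1.81 in no other genus, -4.45 to 0.195 with 1 animal left out) and on chromosome X (-1.33 in no other genus). The causes of these changes were not tested. With 1 animal left out, carriage outside Hoolock differed by -22.1 to -18.5, where the polymorphic class again holds sites that the listing minimum forces to be shared.

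No paired analysis was possible because the labels give no replicate numbers. Depth per animal is unknown, so a site that a shallow library missed cannot be told apart from one not carried.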

Other observations

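The 2 narrow length ranges were not particular to sites carried in Hoolock. Among single-base sites that no Hoolock animal carried, elements of 440 to 469 bp and of 1620 to 1629 bp made up 53.3% of the 415 sites carried in 2 or 3 genera and 28.6% of the 1687 sites carried in 1 genus. The most frequent lengths were 1626 bp in the former and 1837 bp in the latter, as at the shared and the Hoolock-specific sites. These ranges were picked after the lengths were seen and no test was made.

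Few sites lay close to another listed site. Within 1000 bp of one lay 10 of 2257 fixed sites, 0.443%, and 8 of 1044 polymorphic sites, 0.766%, and the median distance to the nearest listed site was 113 kb and 110 kb.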
